A study of Mus musculus with 4 samples.

Results

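The 6 genes described here, Slpi, Wfdc1, Wfdc2, Wfdc3, Wfdc12 and Wfdc18, encode small secreted proteins with a whey acidic protein domain. They were picked by symbol out of 52636 listed genes, and they were selected on measured values, namely their levels in the cell classes and libraries compared below. Those levels are therefore given as a description and support no test. The libraries were made from mammary glands of mice 6 months old, all of which carried pellets of estradiol and progesterone (E2 and P4). One pair of libraries came from mice with the wild-type estrogen receptor gene Esr1, one treated with vehicle (MCT) and one with giredestrant. The other pair came from mice with the Y541S mutant receptor, under the same 2 treatments. Giredestrant blocks the estrogen receptor and promotes its breakdown, and was given at 30 mg/kg by mouth each day for 4 days. Cells carrying EpCAM were sorted by FACS and profiled with the 10x Genomics 3' kit v3.1. The labels do not say how many mice a library holds or whether the mutation was carried on both alleles.

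The whey acidic protein domain is a compact fold held by disulfide bonds, and many proteins that carry it block serine proteases. Slpi, the secretory leukocyte protease inhibitor, blocks neutrophil elastase and cathepsin G and protects mucosal surfaces. Wfdc2, also called HE4, is a secreted product of ductal epithelia, and Wfdc18, also called Expi, is an extracellular proteinase inhibitor known from the mouse mammary gland. The family takes its name from Wap, a main whey protein of rodent milk. Luminal hormone-sensing cells carry the estrogen and progesterone receptors, secretory luminal cells make milk protein, and basal cells are contractile.

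In the GENCODE M21 annotation of GRCm38, 4 of the genes lie in 1 cluster on chromosome 2. Wfdc12 occupies chr2:164189231-164190608 on the minus strand in 3 exons, and A730032A03Rik overlaps it on the plus strand. Slpi follows at chr2:164354070-164389095 on the minus strand, where Mir7678 overlaps it on the same strand. Wfdc2 lies at chr2:164562413-164568510 on the plus strand and Wfdc3 at chr2:164731180-164745931 on the minus strand. Wfdc18 lies at chr11:83709015-83711348 and Wfdc1 at chr8:119666365-119688222, both on the plus strand. The strand setting of the counting is not given in the sources used here, so reads of Wfdc12 and of its overlapping gene may not be separable.

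RefSeq promoter entries (GRCm38.p6) were found for 5 of the genes, all but Wfdc1, and the 250 bases before each start were searched whole on both strands. The sequences of Slpi, Wfdc12 and Wfdc3 are shown because these are the genes whose level in hormone-sensing cells differed most between libraries. Bases inside annotated exons are left out of the printed sequences only, which shortens Wfdc12 to 200 and Wfdc3 to 205 bases. They cover chr2:164356508-164356757 for Slpi, chr2:164190609-164190808 for Wfdc12 and chr2:164743313-164743517 for Wfdc3, all read 5′ to 3′ on the minus strand. The Slpi and Wfdc3 stretches each lie inside the longer GENCODE model of their gene. Capitals mark the only match found in any of the 5 windows, to the estrogen response element half-site GGTCA.
Slpi: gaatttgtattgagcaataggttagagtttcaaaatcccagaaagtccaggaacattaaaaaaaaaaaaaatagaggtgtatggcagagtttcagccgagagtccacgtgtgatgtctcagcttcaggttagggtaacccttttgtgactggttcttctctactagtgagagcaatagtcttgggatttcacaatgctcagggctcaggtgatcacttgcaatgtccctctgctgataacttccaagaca
Wfdc12: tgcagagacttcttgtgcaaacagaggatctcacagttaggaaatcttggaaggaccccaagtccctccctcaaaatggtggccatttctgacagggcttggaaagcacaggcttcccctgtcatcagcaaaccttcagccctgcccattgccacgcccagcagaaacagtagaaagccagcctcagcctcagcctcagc
Wfdc3: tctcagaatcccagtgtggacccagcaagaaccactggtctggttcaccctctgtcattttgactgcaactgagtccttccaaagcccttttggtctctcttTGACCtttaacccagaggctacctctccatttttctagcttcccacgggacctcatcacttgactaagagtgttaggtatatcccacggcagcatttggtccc
The match in Wfdc3 is to the minus strand of the motif and begins 148 bases before the start, and 34.9% of 27025 promoters hold this half-site. None of the 5 windows held the palindromic element GGTCANNNTGACC, present in 0.0629% of promoters, or the TGTTCT half-site of the progesterone and glucocorticoid receptors, present in 16.2%. Neither TTCNNNGAA (a STAT site, in 7.18%) nor TGANTCA (an AP-1 site, in 6.87%) was present. These letters say nothing about sites outside the windows.

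Of 30062 barcodes, 25950 passed the filter of at least 1000 UMIs, at least 500 genes and at most 15% mitochondrial UMIs. The libraries held between 70781982 and 132660456 UMIs, and the median per kept cell ranged from 6267 in the Y541S giredestrant library to 21927 in the wild-type giredestrant library. Cells were classed by the UMIs per 10000 of a few genes: Esr1, Prlr, Areg and Foxa1 at 10 or more for hormone-sensing cells, Elf5, Kit, Csn3 and Wfdc18 at 10 or more for secretory cells, and Acta2, Myh11, Mylk and Tagln at 20 or more for basal cells. Such classes are ranges of a score, and Wfdc18 itself helps to define the secretory class. A total of 22852 cells passed exactly 1 threshold and were used, 818 passed more than 1 and 2280 passed none. Within 20% of the threshold lay 102 cells inside and 88 outside the hormone-sensing class, 39 and 55 for the secretory class, and 243 and 231 for the basal class. The source label reads mature luminal cells, yet 12422 of the cells used scored as basal, and the hormone-sensing class made up 9.07% of kept cells in wild-type vehicle and 28.8% to 34.4% in the other libraries. Every marker that the score did not use (Pgr, Cited1, Prom1 and Ly6a; Aldh1a3, Cd14, Ltf and Lalba; Krt5, Krt14, Cnn1, Trp63 and Oxtr) was highest in its own class in all 4 libraries. After the filter, 81 barcodes occurred in more than 1 library. Each group is 1 library, so no difference below has a replicate check or a p-value, and the 95% intervals (exact Poisson for levels, conditional binomial for ratios, Clopper-Pearson for shares) cover counting error only.

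The family divided by cell class. Levels are counts per 1000000 (CPM) of the UMIs summed over the cells of a class in a library. Wfdc2 and Wfdc12 were highest in hormone-sensing cells and Wfdc18 in secretory cells in all 4 libraries, while the class with the highest level changed between libraries for Slpi and Wfdc3. Slpi was highest in basal cells in 3 libraries, from 3.99-fold (95% interval 3.92 to 4.06) over hormone-sensing cells in wild-type vehicle to 151-fold (119 to 195) over secretory cells in wild-type giredestrant. In the Y541S giredestrant library hormone-sensing cells were highest, 3.18-fold (3.05 to 3.31) above basal cells. Wfdc3 was highest in hormone-sensing cells under vehicle and in secretory cells under giredestrant, in both genotypes. Only 9 UMIs of Wfdc1, a gene known from stromal cells, fell in the 12 sums of class and library, and no ratio is given for it.

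**Figure D1:**
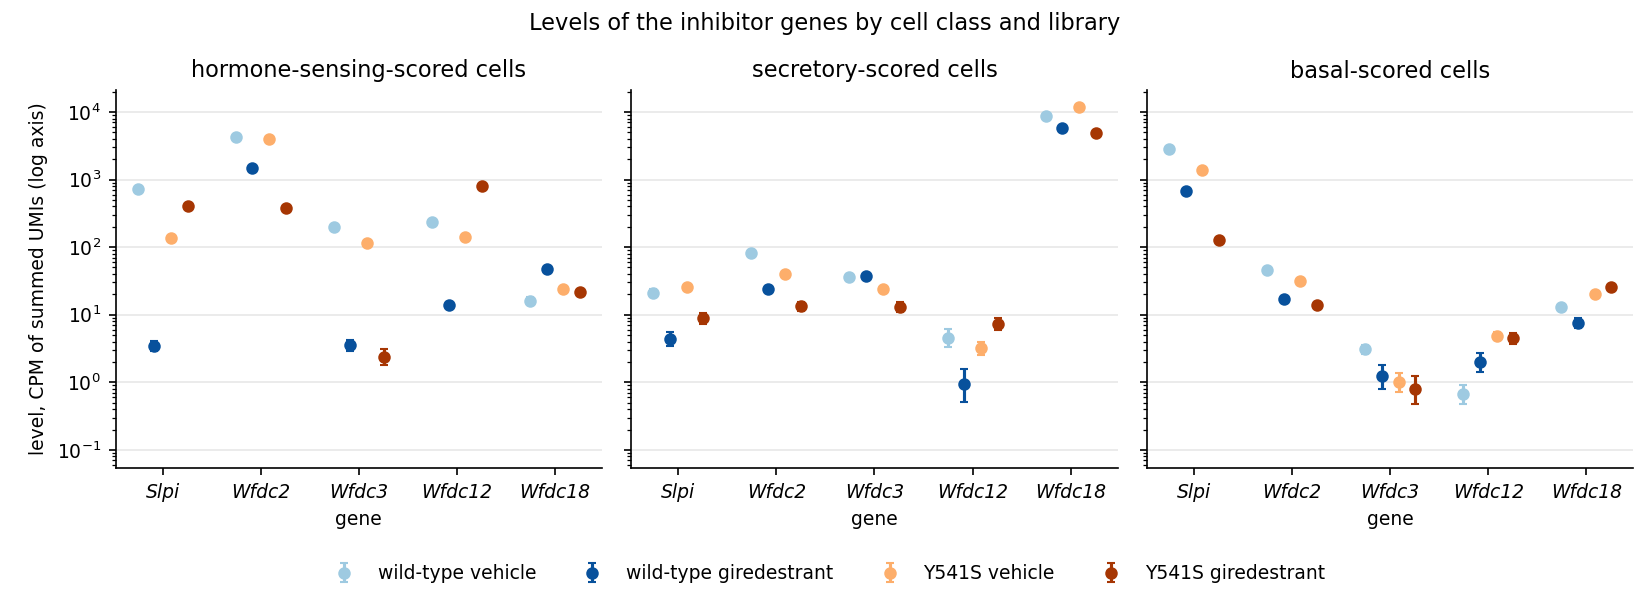
Level of 5 genes (CPM of summed UMIs, log axis) in the 3 cell classes, with 1 point per library and exact Poisson 95% intervals that cover counting error only. Slpi in hormone-sensing cells spans 3.44 to 713 CPM, while Wfdc18 in secretory cells stays between 4885 and 11729.

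Slpi in basal cells was lower with giredestrant in both genotypes. Its level was 2844 CPM (95% interval 2830 to 2858) in wild-type vehicle, 668 (657 to 679) in wild-type giredestrant, 1384 (1372 to 1396) in Y541S vehicle and 129 (124 to 133) in Y541S giredestrant. The wild-type vehicle library was highest and the Y541S giredestrant library lowest. Ratios between libraries are given as relative log2 ratios, the log2 ratio of CPM minus the median over all genes with 20 or more counts in the 2 sums, so that 0 is the median gene. The median itself was between -0.10 and 0.15 in secretory and basal cells, and 0.43 (wild type) and 0.28 (Y541S) for giredestrant in hormone-sensing cells. On this scale Slpi in basal cells differed by -2.24 (-2.27 to -2.22) between the wild-type libraries and by -3.50 (-3.55 to -3.44) between the Y541S libraries. The Y541S library lay below the wild-type one under vehicle, at -1.05, and under giredestrant, at -2.27. The vehicle value lay between -1.14 and -0.97 over 14 alternatives for processing and classes, below 2-fold in 1 of them.

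The share of basal cells with a Slpi UMI followed the same order at both ends. After each cell was thinned to 3000 UMIs, 69.6% (68.2 to 70.9) of basal cells held one in wild-type vehicle, 47.6% (44.4 to 50.7) in wild-type giredestrant, 45.5% (43.7 to 47.4) in Y541S vehicle and 15.3% (14 to 16.7) in Y541S giredestrant. The shares of wild-type giredestrant and Y541S vehicle overlap in their intervals, although the CPM of Y541S vehicle was higher. Unthinned, the shares were 80.4%, 64.9%, 58.2% and 21.1%, at median depths of 10466, 18248, 12227 and 5488 UMIs. Shallower cells left out were 79, 14, 36 and 677. Non-epithelial cells, taken as background, held a Slpi UMI in 0% to 3.16% of 43 to 95 cells at median depths of 5205 to 10247 UMIs. The 10% of basal cells with most Slpi held between 50.3% (wild-type vehicle) and 88.1% (Y541S giredestrant) of its thinned UMIs. This measure depends in part on how many cells hold a UMI, 69.6% and 15.3% there, and is given as a description.

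Slpi in hormone-sensing cells moved in opposite directions with giredestrant in the 2 genotypes. Its level was 713 CPM (702 to 726) in wild-type vehicle and 3.44 (2.86 to 4.10) in wild-type giredestrant. In the Y541S libraries it was 135 (132 to 138) under vehicle and 409 (401 to 417) under giredestrant. Wild-type giredestrant stood far below the other 3 libraries. The relative log2 ratio was -8.13 (-8.40 to -7.88) in wild type and 1.31 (1.27 to 1.36) in Y541S. Relative to the median gene this is 281-fold lower and 2.49-fold higher, and in CPM 208-fold lower and 3.02-fold higher. With the highest 5% of cells by UMIs left out, the relative log2 ratio in Y541S was 0.98, below 2-fold. Y541S lay below wild type under vehicle (-2.52) and above it under giredestrant (6.94). The difference between the genotypes in the giredestrant ratio, 9.45 on the log2 scale, was not tested, since each group is 1 library.

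Few hormone-sensing cells accounted for most Slpi UMIs. At 3000 UMIs per cell, 29.6% (26.0 to 33.3) of them held a Slpi UMI in wild-type vehicle, 0.680% (0.274 to 1.40) in wild-type giredestrant, 15.7% (14.2 to 17.4) in Y541S vehicle and 19.2% (17.6 to 20.9) in Y541S giredestrant. In wild-type giredestrant, 48 non-epithelial cells gave a share of 2.08% (0.0527 to 11.1), an interval that holds that of the hormone-sensing cells. Unthinned, those shares were 1.61% and 6.04%. The unthinned shares were 56.9%, 6.04%, 39.9% and 29.3%, at median depths of 28757, 29614, 25121 and 8626 UMIs. The lower median depth of the Y541S giredestrant cells moves with treatment within Y541S and with genotype under giredestrant. Its part in the levels was not tested. Between 80.2% and 88.9% of the thinned Slpi UMIs lay in the top 10% of cells in the 3 libraries with enough UMIs to say. Free RNA from basal cells was set beside these levels. At the Slpi to Acta2 ratio of basal cells, the Acta2 level of these cells corresponds to 13.2, 1.17, 3.18 and 0.767 CPM of Slpi, in the same order of libraries. Of the measured levels, that of wild-type giredestrant (3.44) came nearest to this estimate. Acta2 is in the basal score, so leaving out cells that also passed that threshold limits the estimate.

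Wfdc12, an inhibitor of epithelial surfaces, showed a similar split within hormone-sensing cells. Its level was 238 CPM (231 to 245) in wild-type vehicle, 14.1 (12.9 to 15.4) in wild-type giredestrant, 139 (136 to 143) in Y541S vehicle and 797 (786 to 808) in Y541S giredestrant. The Y541S giredestrant library was the highest and the wild-type giredestrant library the lowest, with the vehicle libraries between. The relative log2 ratio of giredestrant to vehicle was -4.51 (-4.64 to -4.38) in wild type and 2.24 (2.20 to 2.27) in Y541S. Relative to the median gene this is 22.7-fold lower and 4.71-fold higher, and in CPM 16.8-fold lower and 5.72-fold higher. Between the giredestrant libraries Y541S was 58.3-fold above wild type relative to the median gene (5.86, 5.74 to 5.99). Under vehicle it was lower without passing 2-fold (-0.89). Over the alternatives for processing and classes, the wild-type value ranged from -4.81 to -3.55 and the Y541S value from 2.04 to 3.09.

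A minority of cells carried Wfdc12. At 3000 UMIs a Wfdc12 UMI was found in 6.68% (4.85 to 8.92) of hormone-sensing cells in wild-type vehicle, 2.04% (1.27 to 3.1) in wild-type giredestrant, 4.98% (4.08 to 6.01) in Y541S vehicle and 16.3% (14.8 to 17.9) in Y541S giredestrant. Unthinned shares were 12.8%, 8.53%, 12.2% and 22.3%. The background in non-epithelial cells was 0% to 1.05%. In Y541S giredestrant, where more than 10% of cells held one, the top 10% of cells had 96.4% of the thinned UMIs.

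Slpi and Wfdc12 were found more often in the same hormone-sensing cells. In wild-type vehicle, 16.1% (11.2 to 22.2) of cells with a Slpi UMI also held Wfdc12, against 2.71% (1.41 to 4.68) of cells without one. The shares were 11.8% (8.49 to 15.8) against 3.71% (2.87 to 4.71) in Y541S vehicle and 38.6% (34.0 to 43.5) against 11% (9.57 to 12.5) in Y541S giredestrant. In wild-type giredestrant only 7 cells held Slpi, and no share is given. Wfdc3 went the other way in wild-type vehicle, where 11.8% (7.56 to 17.4) of cells with Slpi held it against 34.5% (30.1 to 39.2) of cells without. In Y541S vehicle those shares were 15.5% (11.8 to 20) and 19.1% (17.2 to 21), with overlapping intervals. All these cells were thinned to the same depth, and cells of 1 library are not replicates.

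Wfdc2 was the member found in most hormone-sensing cells, and was lower with giredestrant in both genotypes. It stood at 4237 CPM (4208 to 4267) in wild-type vehicle, 1507 (1494 to 1519) in wild-type giredestrant, 4030 (4013 to 4047) in Y541S vehicle and 382 (375 to 390) in Y541S giredestrant. The vehicle libraries were close to each other and the Y541S giredestrant library was lowest. Relative log2 ratios were -1.93 (-1.94 to -1.91) in wild type and -3.68 (-3.71 to -3.65) in Y541S. Relative to the median gene this is 3.8-fold and 12.8-fold lower, and in CPM 2.81-fold and 10.5-fold lower. Y541S minus wild type was -0.19 under vehicle and -1.93 under giredestrant. At 3000 UMIs, 95.7%, 88.4%, 97.5% and 54.2% of these cells held a Wfdc2 UMI in the order wild-type vehicle, wild-type giredestrant, Y541S vehicle and Y541S giredestrant. Unthinned they were 98.1%, 96.8%, 99.7% and 74.6%, and non-epithelial cells reached at most 4.65% (thinned). The median cell held 11, 4, 9 and 1 thinned UMIs.

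Wfdc3 in hormone-sensing cells was near 0 in both giredestrant libraries. It was measured at 198 CPM (191 to 204) in wild-type vehicle and 114 (111 to 117) in Y541S vehicle, against 3.52 (2.93 to 4.19) in wild-type giredestrant and 2.39 (1.83 to 3.08) in Y541S giredestrant. The vehicle and giredestrant libraries did not overlap. This gave relative log2 ratios of -6.25 (-6.51 to -5.99) and -5.85 (-6.24 to -5.48) in wild type and Y541S. Relative to the median gene this is 75.9-fold and 57.7-fold lower, and in CPM 56.2-fold and 47.5-fold lower. Y541S minus wild type was -0.92 under vehicle and -0.51 under giredestrant, neither past 2-fold. At 3000 UMIs, 27.8% (24.4 to 31.5) and 18.5% (16.8 to 20.2) of cells held a Wfdc3 UMI in the wild-type and Y541S vehicle libraries, against 0.874% (0.400 to 1.65) and 0.728% (0.417 to 1.18) under giredestrant. No non-epithelial cell held one, and the unthinned shares were 59.3%, 49.5%, 5.37% and 2.34% in that order. Wfdc3 carries the only half-site match among the promoters shown. This half-site occurs in 34.9% of 27025 promoters, and its part in the Wfdc3 levels was not tested.

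In secretory cells Wfdc3 was not near 0 under giredestrant, although it was lower with giredestrant in the Y541S pair. Its level there was 35.6 CPM (32.0 to 39.4) in wild-type vehicle, 37.1 (34.1 to 40.3) in wild-type giredestrant, 23.7 (21.9 to 25.7) in Y541S vehicle and 13 (11 to 15.2) in Y541S giredestrant. The wild-type pair overlapped (relative log2 0.00, -0.19 to 0.20), and the Y541S pair differed by -0.87 (-1.14 to -0.62), less than 2-fold. Over the 14 alternatives the Y541S ratio ranged from -1.25 to -0.73, and it stayed below 2-fold in 11 of them. Free RNA from hormone-sensing cells, read from Areg, would give 2.74, 0.0181, 1.21 and 0.0343 CPM. Areg is in the hormone-sensing score, so leaving out cells that also passed that threshold limits this estimate. The share of secretory cells with a Wfdc3 UMI at 3000 UMIs was 8.12%, 8.17%, 6.63% and 3.35%, at median depths of 12998, 20809, 14988 and 6991, and unthinned 23.5%, 32.9%, 23.1% and 9.17%.

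Wfdc18 marked the secretory class, as its place in the score requires. Its level there was 8620 CPM (8563 to 8677) in wild-type vehicle, 5779 (5741 to 5818) in wild-type giredestrant, 11729 (11688 to 11771) in Y541S vehicle and 4885 (4845 to 4925) in Y541S giredestrant. Both giredestrant libraries were below both vehicle libraries, by -0.63 (-0.65 to -0.62) in wild type and -1.27 (-1.28 to -1.26) in Y541S. Over the 14 alternatives, among them a secretory score without Wfdc18, the ratios ranged from -0.88 to -0.49 and from -1.41 to -1.17. Between 97.6% and 99.8% of secretory cells held a Wfdc18 UMI at 3000 UMIs, against at most 4.65% of non-epithelial cells. Outside the class the gene was at 16.1 to 47.6 CPM in hormone-sensing cells and 7.59 to 25.8 CPM in basal cells. Free RNA read from Csn3, the milk protein kappa-casein, would give 15.8, 40.3, 17.1 and 35.4 CPM in hormone-sensing cells of the libraries in the order above, where 16.1, 47.6, 24.0 and 21.5 were measured. In basal cells it would give 75, 16.1, 66.1 and 44.1 CPM, above every measured value. Cells high in Wfdc18 or Csn3 had been removed from both classes by the rule of 1 threshold, which limits the measured level and the estimate alike, so the values do not show whether these cells express the gene. Cells that passed both the hormone-sensing and the secretory threshold had Wfdc18 at 2414 to 4371 CPM.

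Other low levels were set beside what free RNA would bring, and they were not uniformly near it. Areg, Csn3 and Acta2, from which free RNA was read, are all score genes. The rule of 1 threshold therefore limits these estimates too. Slpi in secretory cells was at 20.7, 4.43, 25.6 and 8.87 CPM, where Areg and Acta2 together would give 20.1, 1.99, 5.40 and 6.75. Wfdc2 in secretory cells was at 81.1, 24.0, 40.3 and 13.3 CPM against 59.0, 7.78, 42.9 and 5.57. In basal cells it stood at 45.7, 17.2, 31.7 and 14 CPM against 20.5, 3.25, 25.2 and 4.17. Wfdc12 in secretory cells was at 4.57, 0.939, 3.21 and 7.35 CPM against 3.30, 0.0784, 1.49 and 11.4. Its basal level was 0.673, 1.99, 4.85 and 4.46 CPM against 1.15, 0.0324, 0.883 and 8.52. Wfdc3 in basal cells was at 3.09, 1.22, 1.02 and 0.799 CPM against 1.23, 0.11, 0.84 and 0.142. As a ratio, though not in CPM, basal Wfdc12 in wild-type giredestrant lay furthest above its estimate among these. In Y541S giredestrant basal Wfdc12 lay below its estimate. The part of free RNA in the differences between libraries was not tested, and these low values enter the counts that follow.

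**Figure D2:**
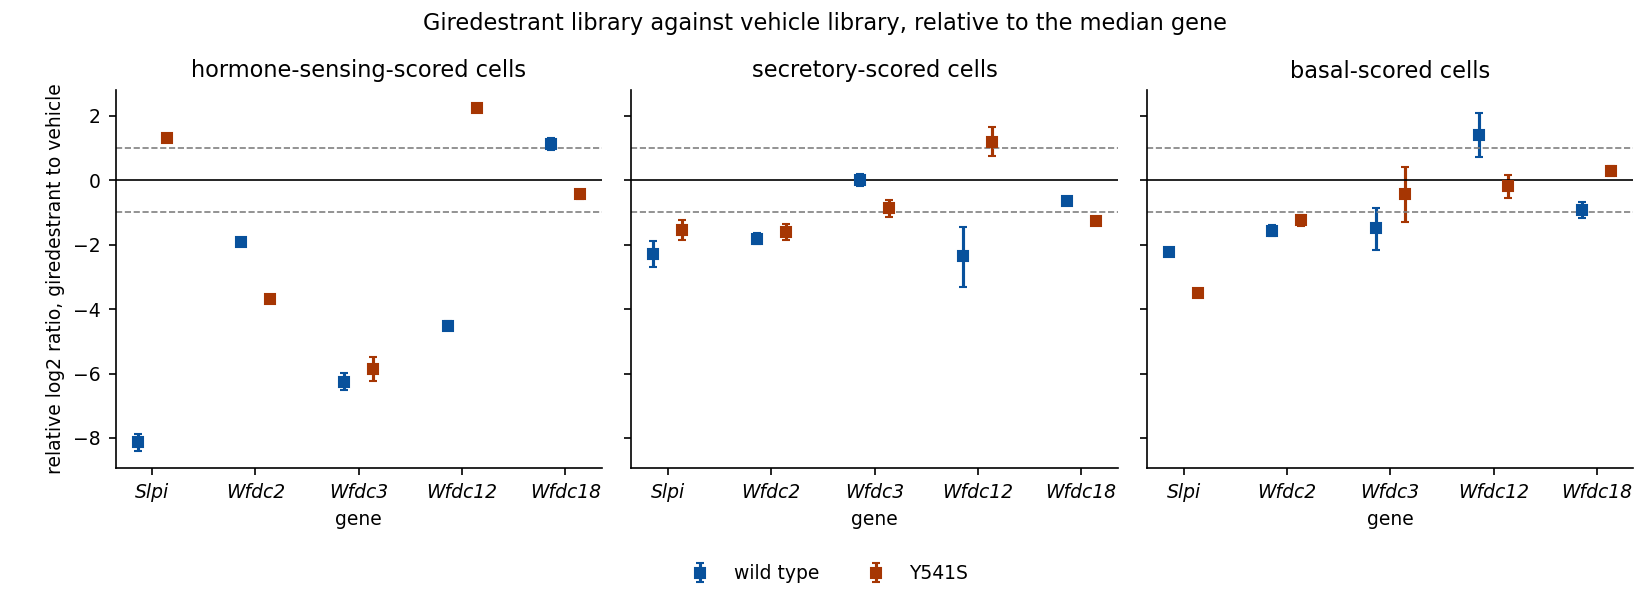
Relative log2 ratio of the giredestrant to the vehicle library (0 is the median gene) for 5 genes in the 3 cell classes, with wild type in blue and Y541S in brown, conditional binomial 95% intervals and dashed lines at 2-fold. In hormone-sensing cells Slpi lies at -8.13 and 1.31 and Wfdc12 at -4.51 and 2.24, on opposite sides of 0 in the 2 genotypes.

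With giredestrant in wild type, 12 of 15 ratios of a member in a class were past 2-fold. In hormone-sensing cells 4 of 5 were lower, where 12.7% of all genes tested were, and 1 was higher (Wfdc18), where again 12.7% were. The median member lay at -4.51. Secretory cells had 3 lower, Slpi, Wfdc2 and Wfdc12 (background 4.09%), and 0 higher (3.61%), but Wfdc2 turned to 0.74 and Wfdc12 to 0.33 with cells of more than 1 class included. Basal cells had 3 lower (6.65%) and 1 higher (6.08%), the higher one being Wfdc12 at 1.99 CPM, which turned to -1.49 with class thresholds doubled. The call for Wfdc18 in hormone-sensing cells turned to -0.08 with the highest 5% of cells by UMIs left out. Since these libraries were used to choose the members, the counts are set beside the background and nothing is read from them.

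The Y541S pair gave 10 of 15 ratios past 2-fold. In hormone-sensing cells 2 were higher (Slpi and Wfdc12; background 16.1%) and 2 lower (Wfdc2 and Wfdc3; 12.8%), and the median member lay at -0.44. Secretory cells had 1 higher (7.80%) and 3 lower (6.57%), and the higher one, Wfdc12, turned to -0.08 with cells of more than 1 class included. In basal cells 0 were higher (7.29%) and 2 lower (4.12%).

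Of the 4 comparisons, that of the genotypes under vehicle had the fewest ratios past 2-fold, 4 of 15. It also had the smallest share of all genes past 2-fold in each class, so nothing is read from this order. Slpi was lower in hormone-sensing cells (10.6% of all genes passed 2-fold in either direction). None passed in secretory cells (6.92%). In basal cells Slpi and Wfdc3 were lower and Wfdc12 higher (7.74%), the last 2 at levels under 5 CPM. Wfdc3 turned to 0.24 with cells of more than 1 class included, and Wfdc12 to -0.44 with class thresholds doubled. Including cells of more than 1 class, or leaving Wfdc18 out of the secretory score, raised the count from 4 to 8. The share of all genes was not computed in those settings, so nothing is read from the rise. Under giredestrant 10 of 15 passed 2-fold: 4 in hormone-sensing cells (background 29.7%), 3 in secretory cells (15.6%) and 3 in basal cells (14.7%). Wfdc18 in hormone-sensing cells, 1 of these, turned to 0.05 with the mean of per-cell CPM. The 4 comparisons share libraries pairwise, so they are not independent of one another.

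Krt14, a basal keratin, and Krt6a, a keratin of stressed and hair follicle epithelium, set the hormone-sensing cells of the Y541S giredestrant library apart. Krt6a stood at 359, 31.6, 184 and 1307 CPM and Krt14 at 28.1, 19.1, 15.1 and 787 in wild-type vehicle, wild-type giredestrant, Y541S vehicle and Y541S giredestrant. The 9 basal markers summed to 96.5, 51.8, 53.0 and 985 CPM, of which Krt14 gave most in Y541S giredestrant, with Trp63 at 86.1, Cnn1 at 3.47 and Oxtr at 0.359 there. The luminal markers Krt8, Krt18, Krt19 and Epcam summed to 11349, 15252, 14873 and 5852 CPM, lowest in Y541S giredestrant. The hormone-sensing markers, of which Esr1, Prlr and Foxa1 are in the score, summed to 3707, 6423, 3620 and 2073 CPM. Prlr, Cited1, Prom1 and Ly6a were lowest in Y541S giredestrant, while Esr1, Foxa1 and Pgr were not. The part of these marker levels in the differences between libraries was not tested. The summed keratinocyte markers were at 369, 49.0, 204 and 1323 CPM, with Krt6a the most abundant of the latter and Krt1, Krtdap and Dsg1a at or below 2.80. Cells with 5 or more UMIs per 10000 of Krt14 and Krt6a together made up 26.9%, 1.05%, 11.6% and 58.8% of the class, a threshold set after these levels had been seen.

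Slpi and Wfdc12 belonged to the cells low in these keratins. In Y541S giredestrant, Slpi was at 828 CPM (811 to 845) in the 1021 cells below the threshold and at 74.2 (69.7 to 78.8) in the 1458 cells at or above it. Wfdc12 was at 1639 CPM (1615 to 1663) and 126 (120 to 132). The same direction held in wild-type vehicle, with Slpi at 892 and 236 CPM and Wfdc12 at 301 and 68.9. In Y541S vehicle Wfdc12 was at 150 and 62.2 CPM, while Slpi was at 129 and 182, the other way round. The wild-type giredestrant library had only 11 cells above the threshold. At 3000 UMIs, 38.6% (35.4 to 41.8) of the low-keratin cells of Y541S giredestrant held Slpi against 7.07% (5.73 to 8.61) of the others, and 33.0% (29.9 to 36.1) against 4.97% (3.85 to 6.31) held Wfdc12.

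Wfdc2 and Wfdc3 did not follow this split. Wfdc2 was at 420 and 352 CPM in the low-keratin and high-keratin cells of Y541S giredestrant, and at 3956 and 4989 in wild-type vehicle. Wfdc3 was at 0.809 and 3.66 CPM in Y541S giredestrant. Among low-keratin cells alone the Y541S giredestrant to vehicle ratio of Slpi was 2.31 and that of Wfdc12 was 3.09, both larger than in the whole class. The ratio of Wfdc3 was -7.50 there.

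**Figure D3:**
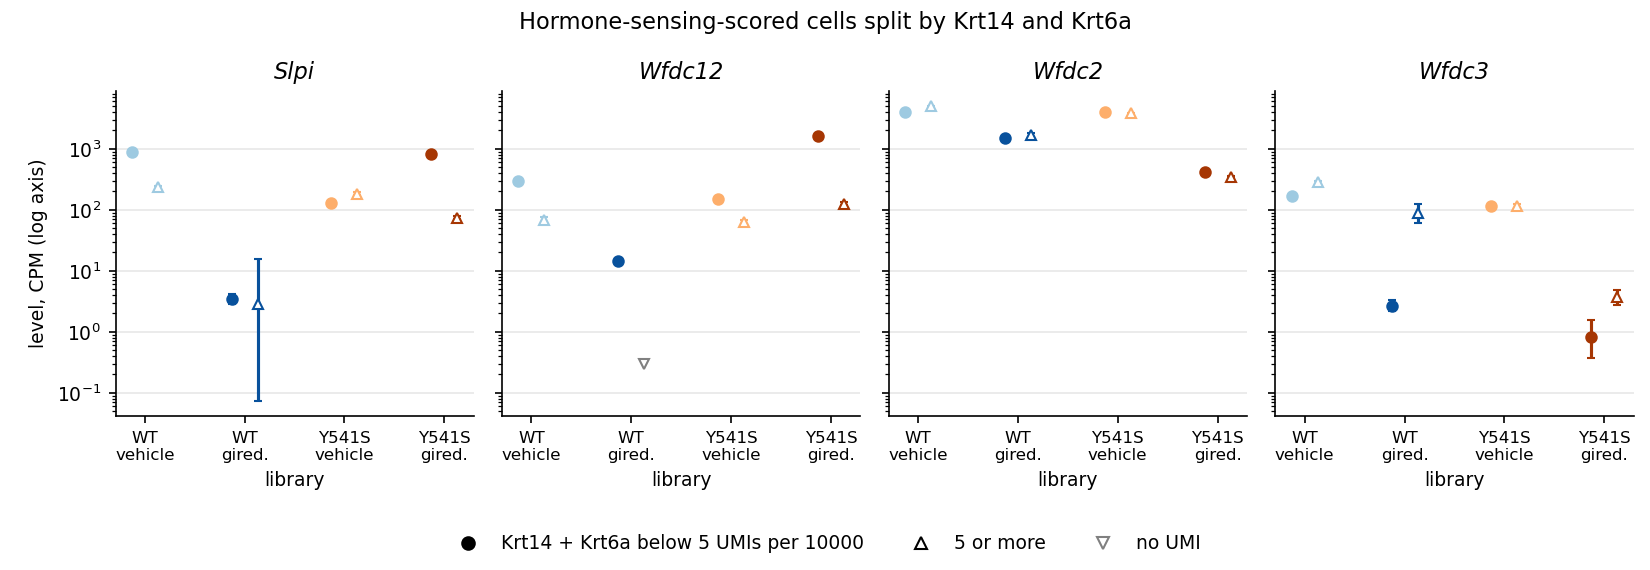
Level (CPM, log axis, exact Poisson 95% intervals) of 4 genes in hormone-sensing cells with Krt14 and Krt6a below 5 UMIs per 10000 (filled circles) or at 5 or more (open triangles), by library, where an open grey triangle marks no UMI. In Y541S giredestrant Slpi is at 828 against 74.2 CPM and Wfdc12 at 1639 against 126, while Wfdc2 is at 420 against 352.

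**Figure D4:**
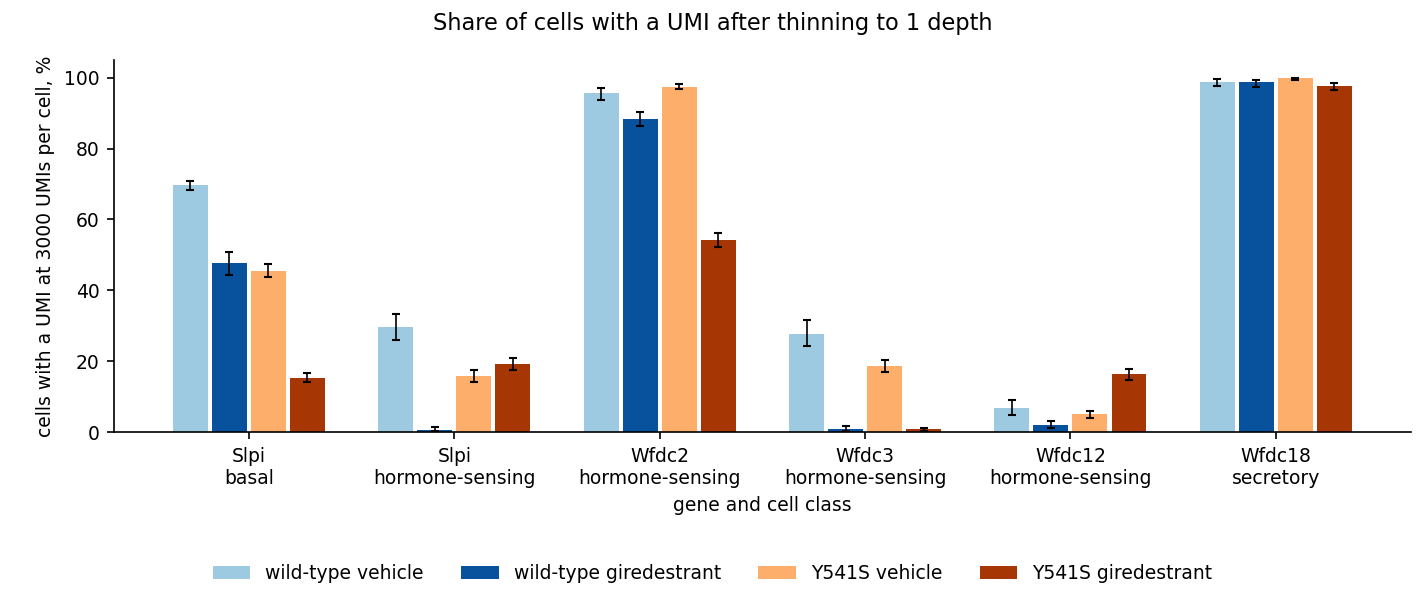
Percent of cells with at least 1 UMI of a gene after thinning each cell to 3000 UMIs, for 6 pairs of gene and class, with bars by library and Clopper-Pearson 95% intervals. Wfdc3 is found in 27.8% and 18.5% of hormone-sensing cells under vehicle and in under 1% under giredestrant, and Wfdc18 in at least 97.6% of secretory cells in every library.

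Genes of 3 further lists place the family among proteases and other inhibitors. The lists were set with earlier results of these data known, so the counts describe and support nothing. Beside them stand the shares of all genes tested that were higher and lower with giredestrant. In hormone-sensing cells these were 12.7% and 12.7% in wild type, and 16.1% and 12.8% in Y541S. Secretory cells had 3.61% and 4.09% in wild type, and 7.80% and 6.57% in Y541S. Basal cells had 6.08% and 6.65% in wild type, and 7.29% and 4.12% in Y541S. Of 19 other genes with a whey acidic protein or related domain, 4 had enough counts in hormone-sensing cells of the wild-type pair, with 1 higher, 2 lower and a median of -0.08. Papln, a matrix glycoprotein, was at 53.2 CPM under vehicle and 11.5 under giredestrant (-2.65). In the Y541S pair 5 were measured, 3 higher and 0 lower, with a median of 1.66. Wfdc13 was at 0.562 and 12.2 CPM (4.16), Wfdc8 at 0.0907 and 0.838 (2.93) and Wfdc15b at 0.798 and 3.07 (1.66), all at low levels. Wap reached at most 2.21 CPM in any class.

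Serine proteases and partners of these inhibitors were a list of 22 genes. In hormone-sensing cells of wild type 17 were measured, with 1 higher, 5 lower and a median of -0.69. F3, the tissue factor that starts coagulation, was at 607 CPM under vehicle and 174 under giredestrant (-2.24), and Plat, the tissue plasminogen activator, at 11.7 and 4.02 (-1.97). Plau, the urokinase plasminogen activator, was the 1 higher gene, at 1.62 and 6.18 CPM (1.49). In Y541S 18 were measured, with 6 higher, 6 lower and a median of 0.39. The membrane protease Tmprss6 went from 11.8 to 248 CPM (4.11) and Plau from 9.38 to 134 (3.56). Prss8, or prostasin, was at 29.1 and 12.9 CPM (-1.45), and Tmprss4 at 7.87 and 3.55 (-1.43). Elane and Ctsg, the neutrophil proteases that Slpi blocks, had too few counts in every pair, and Prtn3, another neutrophil protease, reached at most 5.40 CPM. In secretory cells 1 was higher and 4 lower of 16 in wild type, and 3 higher and 0 lower of 18 in Y541S. Basal cells had 0 higher and 2 lower of 15, and 2 higher and 0 lower of 14.

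Epithelial protease inhibitors of other families made up a list of 27. In hormone-sensing cells of wild type 20 were measured, with 6 higher, 7 lower and a median of -0.58. Spink8, of the Kazal family, was at 33.0 CPM under vehicle and 0.416 under giredestrant (-6.74), Timp1, an inhibitor of metalloproteases, at 75.3 and 12.6 (-3.02), and the cystatin Cst6 at 0.314 and 15.4 (5.18). The Y541S pair had 20 measured, 5 higher and 7 lower, with a median of -0.25. Spink8 was at 25.7 and 0.239 CPM (-7.03) and Serpine2 at 181 and 24.7 (-3.15), while Timp3 was at 4.01 and 45.4 (3.22). Serpinb2, which blocks urokinase, had no UMI in the vehicle sum and 13.6 CPM under giredestrant, a ratio of at least 7.68 with the vehicle sum set to 3 counts. Spink8 was thus low in both giredestrant libraries, like Wfdc3, and the likeness was not tested. In secretory cells 1 was higher and 2 lower of 16 in wild type, and 1 higher and 5 lower of 18 in Y541S. In basal cells 1 was higher and 3 lower of 20 in wild type, and 1 and 1 of 20 in Y541S.

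The cluster on chromosome 2 spans 557 kb from Wfdc12 to Wfdc3 and holds 32 protein-coding genes in GENCODE M21. Of the genes in it other than the 4 members, 8 were measured in hormone-sensing cells of the wild-type pair. Of these, 0 were higher (background 12.7%) and 3 lower (12.7%). In the Y541S pair 13 were measured, with 3 higher (background 16.1%) and 2 lower (12.8%). The 3 higher ones were Wfdc13, Wfdc8 and Wfdc15b. Sdc4, a syndecan between Slpi and Wfdc2, was at 668, 703, 724 and 842 CPM, within 2-fold in both pairs (-0.36 and -0.06). Matn4 and Rbpjl, which lie next to Slpi, were at 6.49 and 2.80 CPM (-1.65) and at 1.83 and 0.582 (-2.09) in the wild-type pair. The Slpi ratio of that pair was -8.13, far below either neighbour.

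**Figure D5:**
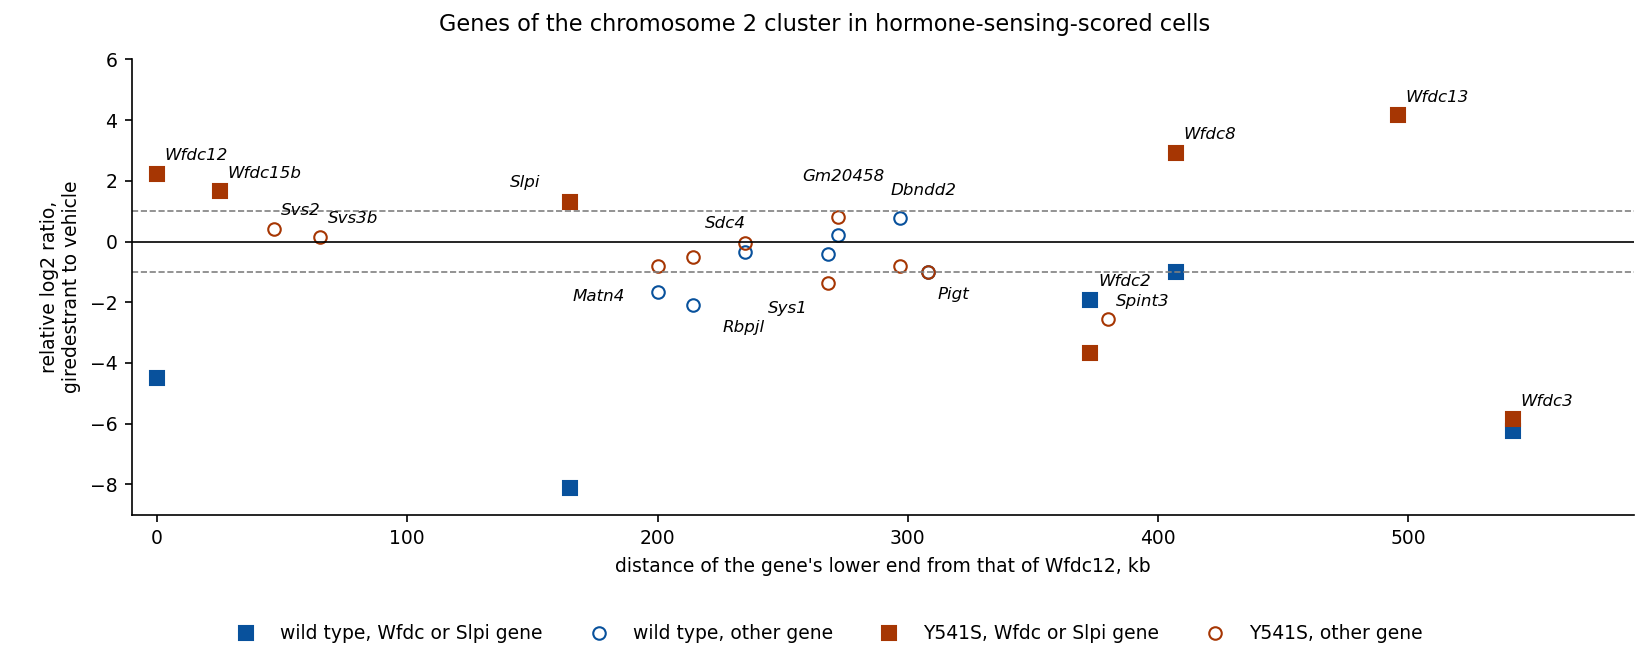
Relative log2 ratio of giredestrant to vehicle in hormone-sensing cells against position in the chromosome 2 cluster, in kb from the lower end of Wfdc12, for every gene with 20 or more counts in the pair of sums (filled squares, genes on the family lists; open circles, other genes). Slpi and Wfdc12 split by genotype, Wfdc3 lies at -6.25 and -5.85, and Sdc4 stays near 0.

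Finally, the genes whose pattern over the 12 sums was most like that of each member were found among 9007 genes with a mean of 10 CPM or more. Likeness was Pearson's r of log2(CPM + 1) over the 12 sums, which share 4 libraries and 3 classes, so it carries no p. For Wfdc2 these were Defb1, an epithelial defensin (r = 0.992), Cxcl15 (0.984) and Grm8 (0.978). Defb1 stood at 3589, 647, 2571 and 238 CPM in hormone-sensing cells. Wfdc3 was most like Wisp2 (0.951), Sec11c (0.945) and Ogfod3 (0.921), and Wisp2 was at 86.7, 0.748, 74.3 and 0.519 CPM in those cells. Wfdc12 was most like Ick (0.968), the EGF receptor ligand Epgn (0.964) and F3 (0.962), with Epgn at 89.4, 8.98, 111 and 438 CPM. Slpi was most like Pard6g (0.916), Trabd2b (0.915) and Tnik (0.908), and Wfdc18 like Gabrg3 (0.992), the score gene Elf5 (0.991) and Zfp367 (0.99). Such likeness takes in differences between classes as well as between libraries. In basal cells Pard6g was at 86.0, 83.0, 79.6 and 90.6 CPM in the same order of libraries, where Slpi was at 2844, 668, 1384 and 129. Among the members themselves r was highest between Wfdc2 and Wfdc12 (0.769) and lowest between Slpi and Wfdc18 (-0.742).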

How the data were processed

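The deposited files hold raw UMI counts per gene and barcode, made with Cell Ranger 6.0.1 per the file headers and GRCm38 per the submitters' processing notes. Deposited barcodes with at least 1000 UMIs, at least 500 genes and at most 15% mitochondrial UMIs were kept. No doublet caller was run, and cells passing more than 1 class threshold were left out. Counts were summed per class and library with Python 3.11.15, numpy 2.4.6, scipy 1.17.1 and pandas 2.3.3. Ratios were centred on the median over genes with 20 or more counts in the pair of sums, and 2-fold was the threshold. Centring with edgeR 4.0.16 (TMM factors only, R 4.3.3) was an alternative, beside other filters, scores and thresholds. A gene with no UMI in a sum was set to 3 counts there. The ratio step was tested on simulated data. The members, lists and rules were chosen with earlier results of these data known. Genes named are the 6 members, the 3 genes most like each, and up to 4 per list and pair, those furthest in each direction, beside a few neighbours of Slpi in the cluster and low-level genes chosen after their values were seen. Protein sequences were not used here.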

Additional observations from a re-analysis of the deposited data

Results flagged for a closer look

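Slpi in hormone-sensing cells moved in opposite directions with giredestrant, the relative log2 ratio being -8.13 for the wild-type pair of libraries and 1.31 for the Y541S pair. With 1 library per group, the difference was not tested. The same 4 libraries give -2.52 for Y541S against wild type under vehicle and 6.94 under giredestrant.

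Wfdc12 in hormone-sensing cells was likewise lower in wild type (-4.51) and higher in Y541S (2.24), and the difference was not tested. In secretory cells its ratios were -2.34 and 1.19, again not tested, at levels of 0.939 to 7.35 CPM. With cells of more than 1 class included both turned, to 0.33 and -0.08.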

How the results depend on the processing

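Ratios were recomputed under 14 alternatives, 12 planned and 2 chosen after seeing the data (hormone-sensing cells low in Krt14 and Krt6a, and barcodes found in 1 library only). Of 36 member ratios past 2-fold, 28 kept their sign and 22 stayed past 2-fold in every alternative. The class with the highest level of each member was the same in every alternative that alters the sums or the cells in them. For Y541S against wild type under vehicle, 4 ratios of a member in a class passed 2-fold. The number was 8 both with cells of more than 1 class included and with the secretory score made without Wfdc18. No share of all genes was computed in those settings. The other counts stayed within 1.5 times. With cells of more than 1 class included, secretory Wfdc2 (0.74) and Wfdc12 (0.33) in the wild-type giredestrant pair, secretory Wfdc12 in the Y541S pair (-0.08) and basal Wfdc3 between genotypes under vehicle (0.24) reversed. With class thresholds doubled, basal Wfdc12 reversed in the wild-type pair (-1.49) and between genotypes under vehicle (-0.44). Wfdc18 in hormone-sensing cells turned to 0.05 between genotypes under giredestrant with the mean of per-cell CPM, and to -0.08 in the wild-type pair with the highest 5% of UMIs left out. The causes were not tested. No paired analysis was possible because each group is 1 library, and no replicate could be left out.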

Other observations

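Cells that passed 2 class thresholds carried the members of both. Wfdc18 is part of the secretory score, so its level in such cells follows in part from the rule. In wild-type giredestrant, 128 cells passed both the hormone-sensing and the secretory threshold, with a median of 64358 UMIs, Wfdc2 at 956 CPM and Wfdc18 at 2414 CPM. In Y541S vehicle 126 such cells, with a median of 36350 UMIs, had Wfdc2 at 2221 CPM and Wfdc18 at 4371 CPM. Whether they are pairs of cells in 1 droplet was not tested.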
